A study of Mus musculus with 8 samples.

Results

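Airn is a long noncoding RNA of an imprinted gene cluster, and it is described here with other imprinted genes, many of which act in growth control. Of 10 such genes, Airn, Igf2r, Igf2, Grb10, Peg3, Plagl1, Cdkn1c and Impact had a transcript cluster assigned to their symbol alone, so 8 genes out of 14860 named on the arrays were analysed, each by 1 transcript cluster. Mest had no transcript cluster listed under its symbol, and Meg3 shared its transcript cluster with a second gene, so neither was analysed here. The set was chosen by the rise of Airn in exosomes. The differences between exosomes and cells are therefore given for these 8 genes as a description without p-values.

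The study measured RNA of exosomes, small vesicles released by cells, and of the cells that released them. The exosomes were isolated from serum-free medium that B16F0 cells had conditioned for 24 h (4 samples), and the cells were B16F0 cells kept for 24 h in serum-free medium (4 samples). B16F0 is a pigmented mouse melanoma line, no agent or gene change is named in the labels, and all 8 samples come from this 1 line. Each sample was put on 1 whole-transcript exon array. Whether the samples within a group came from different cultures is not stated, so the spread behind each test is that among these arrays and may be technical. An equal mass of labelled cDNA was used, so a value is a level relative to the RNA on the array, and a larger share of the RNA cannot be told apart from more copies per vesicle or cell.

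Imprinted genes are expressed mainly from the allele inherited from 1 parent, as set for many of them by DNA methylation laid down in the germ line. Airn is transcribed from the paternal allele, runs antisense through part of Igf2r and silences the paternal copies of Igf2r, Slc22a2 and Slc22a3, the solute carriers in the placenta. Many imprinted genes set fetal growth. Igf2 is a growth factor expressed from the paternal allele, while the maternally expressed Igf2r removes it from the cell surface and Grb10 restrains signalling from the insulin and insulin-like growth factor receptors. The arrays do not tell alleles apart, so imprinting itself was not measured.

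Airn and Igf2r lie on opposite strands of chromosome 17, and the start of Airn lies inside the Igf2r gene in the RefSeq annotation. The labels do not state whether the signal keeps strands apart, and probe positions were not used here, so signal from a stretch shared by both genes could not be assigned. Because this pair moved in opposite directions, the sequence around each start is shown, from 250 bases before to 50 bases after it, as RefSeq gives it on GRCm38.p6, 5′ to 3′ on the strand of the gene. Capitals mark CG dinucleotides, the sites of DNA methylation. The Airn window is chr17:12741061-12741360 on the plus strand, and the Igf2r window is chr17:12769657-12769956 on the minus strand.
Airn: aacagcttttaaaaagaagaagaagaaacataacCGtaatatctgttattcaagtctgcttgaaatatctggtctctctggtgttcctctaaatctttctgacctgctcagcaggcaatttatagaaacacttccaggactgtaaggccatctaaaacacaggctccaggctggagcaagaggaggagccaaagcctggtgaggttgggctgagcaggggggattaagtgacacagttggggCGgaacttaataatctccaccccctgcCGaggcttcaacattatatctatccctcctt
Igf2r: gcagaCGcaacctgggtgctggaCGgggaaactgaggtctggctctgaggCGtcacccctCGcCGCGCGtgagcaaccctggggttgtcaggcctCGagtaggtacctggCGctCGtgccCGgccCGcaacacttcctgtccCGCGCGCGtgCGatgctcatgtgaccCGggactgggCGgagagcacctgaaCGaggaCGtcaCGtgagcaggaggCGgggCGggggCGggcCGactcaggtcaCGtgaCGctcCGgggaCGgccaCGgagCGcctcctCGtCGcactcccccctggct
The Airn window held 3 CG dinucleotides and had a GC content of 45.7%, and the Igf2r window held 34 with a GC content of 70.7%. Among 32851 windows of 300 bases from 27025 genes the median was 7 CG dinucleotides, with 23.3% of windows below Airn and 92.3% below Igf2r. The hexamer TGCCGC, the core of the site bound by the imprint protector ZFP57, was counted on both strands. It was in 6 of 15 windows of 8 of the 10 genes, some of which overlap, and in 11.6% of all windows. Overlapping windows of Mest, which has no value here, can count the same sites again, so nothing is read from these shares. The hexamer was in neither of the 2 windows printed.

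Background was taken from 834 transcript clusters of odour, pheromone and taste receptor genes, and a gene was above background on an array when it exceeded their 95th percentile there. This threshold was higher on exosome arrays than on cell arrays, at 6.46 ± 0.05 and 5.70 ± 0.03 (log2, SD, n = 4 each). A two-sided exact permutation test gave p = 0.0286, its lowest possible value with 4 arrays a group. The 75th percentile of all values was lower on exosome arrays, at 7.13 ± 0.06, against 8.53 ± 0.06 on cell arrays (exact permutation p = 0.0286). A linear model over all 23332 transcript clusters (limma, adjusted p below 0.05) placed 16.4% of them higher in exosomes and 42.9% lower. These were 3818 and 10008 transcript clusters as deposited. The split became 6627 and 6582 with quantile normalization, 6799 and 6490 with cyclic loess, and 1058 and 16681 when each array was centred on its background genes. Of 9 measured melanocyte-lineage markers, 9 were above background on all arrays of both groups, and their summed level was log2 13.94 to 14.06 in exosomes and 15.71 to 15.77 in cells. None of 6 leukocyte and 4 endothelial markers was above background on all arrays of a group, nor were 4 keratinocyte markers except Krt10 in cells. Of 6 fibroblast markers, Col1a1 and Col1a2 were above background in both groups. The summed fibroblast level was 8.28 to 8.44 in exosomes and 8.15 to 8.26 in cells, and its part in the results was not tested.

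Of the 8 genes, Airn and Impact were higher in exosomes, Igf2r and Plagl1 were lower, and Igf2, Grb10, Peg3 and Cdkn1c were at or near background. Limma called 2 of the 8 higher and 2 lower, where it called 14.6% and 52.1% of all 14860 genes. Exosome values lay above all cell values for 3 genes (Airn, Impact and Igf2) and below them for 2, where 13.6% and 52.1% of all genes did so. All 4 called genes were above background on all 8 arrays. The directions of the 4 were called the same way under each of the 3 other scalings. The median difference of all genes was -0.39 (log2, exosomes minus cells), and that of the 5264 genes above background on all 8 arrays was -1.17.

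**Figure D1:**
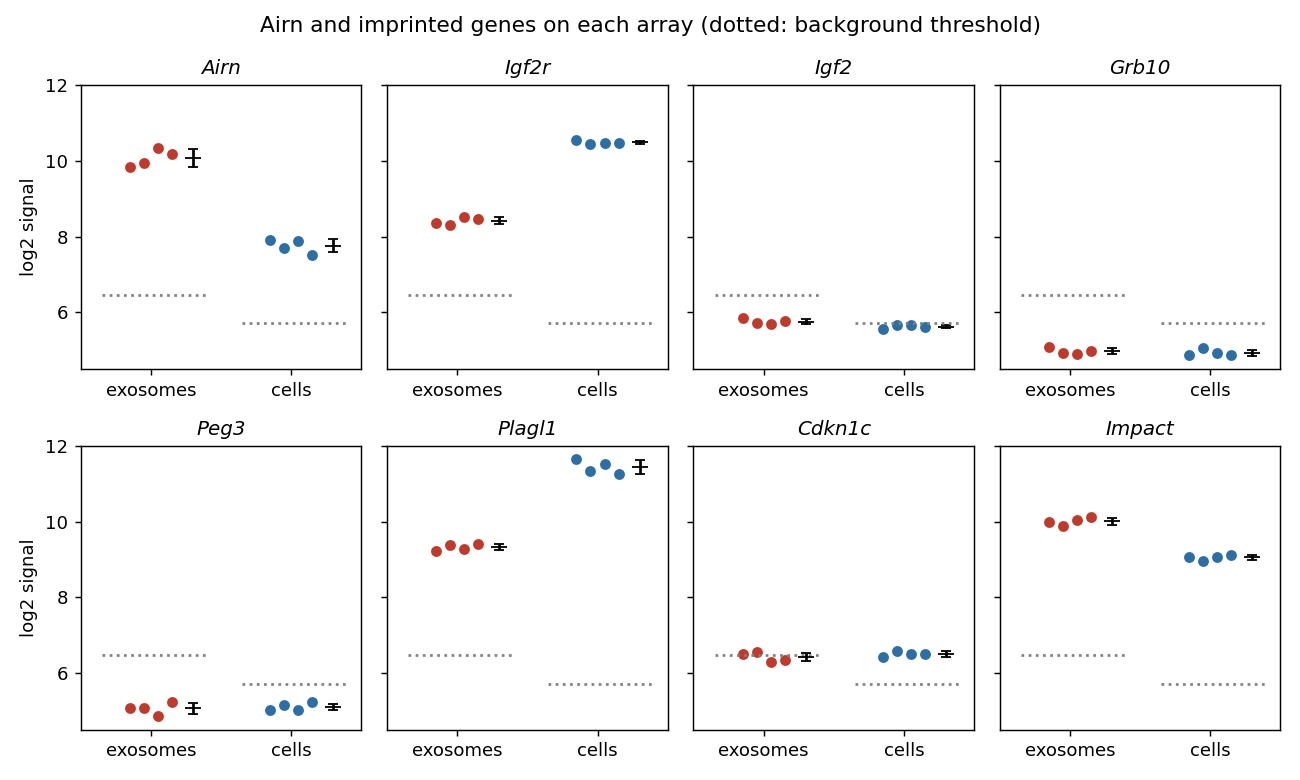
Log2 signal of the 8 genes (vertical axis) on each of 4 exosome arrays (red points, left) and 4 cell arrays (blue points, right), with the mean and SD in black and the mean background threshold of the group as a dotted line. Airn and Impact were higher in exosomes, Igf2r and Plagl1 lower, and Igf2, Grb10 and Peg3 lay below the threshold in both groups.

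Airn had log2 values of 9.83, 9.95, 10.35 and 10.18 in exosomes, against 7.91, 7.71, 7.89 and 7.52 in cells. The lowest exosome array was above the highest cell array, and both groups were clear of background. Its values exceeded the background threshold of the same array by 3.34 to 3.85 in exosomes and by 1.78 to 2.24 in cells. Airn averaged 10.08 ± 0.23 in exosomes and 7.76 ± 0.18 in cells (SD, n = 4 each), a log2 difference of 2.32 ± 0.14 (SE), or 5.00-fold. Ranked from the highest difference, Airn was gene 39 of 14860, and 34 of the 5264 genes above background on all arrays had a larger difference. The difference stayed between 2.23 and 2.41 with any 1 array left out. Quantile normalization gave 3.35 and cyclic loess 3.75, and with background centring it was 1.73.

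Igf2r encodes the cation-independent mannose 6-phosphate receptor, which carries lysosomal enzymes from the Golgi and clears insulin-like growth factor 2. Its log2 values were 8.37, 8.31, 8.51 and 8.47 in exosomes, against 10.55, 10.45, 10.48 and 10.48 in cells. The groups did not overlap, and every exosome array was still above background by 1.85 or more. Igf2r averaged 8.42 ± 0.09 in exosomes and 10.49 ± 0.04 in cells (SD, n = 4 each), a log2 difference of -2.07 ± 0.07 (SE), or 4.20-fold lower. Of all genes, 15.1% had a more negative difference, so the fall of Igf2r was one shared by many genes of these arrays. Quantile normalization reduced it to -0.98 and cyclic loess to -0.72, and background centring gave -2.67. Set against each other on the same arrays, Airn gained 4.39 on Igf2r in exosomes relative to cells, and this shift was 4.33 after quantile normalization and 4.47 after cyclic loess. Shifting a whole array up or down cannot change it. The rise of Airn, by which the set was chosen, is part of this shift, so nothing is read from its size.

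Igf2, the growth factor ligand of this receptor, was not above background on any array. Its log2 values were 5.84, 5.71, 5.69 and 5.77 in exosomes, against 5.56, 5.65, 5.67 and 5.60 in cells. All 4 exosome values lay above the cell values by a small margin, but the median of the background genes was also higher in exosomes, by 0.60. Relative to the threshold of the same array, Igf2 lay at -0.81 to -0.62 in exosomes and at -0.14 to -0.03 in cells. The difference of 0.13 ± 0.07 (log2, SE) was not called as deposited. Igf2 was called higher after quantile normalization (0.36) and cyclic loess (0.34), and lower when arrays were centred on background genes (-0.47).

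Grb10, an adaptor protein that binds the insulin receptor and dampens its signal, was not above background on any array either. It had log2 values of 5.09, 4.92, 4.90 and 4.96 in exosomes, against 4.86, 5.04, 4.93 and 4.87 in cells. The groups overlapped, with a difference of 0.04 ± 0.08 (log2, SE). Peg3, a zinc finger transcription factor of the paternal allele, was below background too, with 5.07, 5.07, 4.87 and 5.23 in exosomes, against 5.03, 5.15, 5.03 and 5.22 in cells. Its groups also overlapped, and the difference was -0.05 ± 0.09. With background centring both were called lower, Grb10 at -0.56 and Peg3 at -0.64. For genes below background in both groups no fold is given, and whether their RNA differed could not be read from these arrays.

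Plagl1 encodes a zinc finger transcription factor that can halt the cell cycle and regulates other imprinted genes. Its log2 values were 9.23, 9.39, 9.29 and 9.42 in exosomes, against 11.67, 11.35, 11.53 and 11.25 in cells. The groups lay far apart, and the exosome arrays remained above background by 2.75 to 3.03. Plagl1 averaged 9.33 ± 0.09 in exosomes and 11.45 ± 0.19 in cells (SD, n = 4 each), a log2 difference of -2.12 ± 0.11 (SE), or 4.33-fold lower. As for Igf2r, this was not rare, since 14.2% of all genes had a more negative difference. With quantile normalization it was -1.25, with cyclic loess -0.94 and with background centring -2.71.

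Cdkn1c encodes an inhibitor of cyclin-dependent kinases that is expressed from the maternal allele and limits cell division. It had log2 values of 6.50, 6.54, 6.30 and 6.34 in exosomes, against 6.42, 6.59, 6.49 and 6.51 in cells. The groups overlapped, with a difference of -0.08 ± 0.08 (log2, SE). Because the threshold was higher on exosome arrays, Cdkn1c was above background on 2 of 4 exosome arrays and on 4 of 4 cell arrays at nearly the same values. The direction depended on the scaling. Cdkn1c was called higher after quantile normalization (0.74) or cyclic loess (0.70), and lower with background centring (-0.68).

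Impact is a paternally expressed gene whose protein restrains the stress kinase GCN2, which slows translation when amino acids are short. Its log2 values were 9.98, 9.89, 10.05 and 10.13 in exosomes, against 9.06, 8.97, 9.07 and 9.13 in cells. All exosome arrays were above all cell arrays, and the spread within each group was small. Impact averaged 10.01 ± 0.10 in exosomes and 9.06 ± 0.07 in cells (SD, n = 4 each), a log2 difference of 0.95 ± 0.08 (SE), or 1.94-fold. Of all genes, 2.87% had a larger difference, as had 212 of the 5264 genes above background on all arrays. Background centring gave 0.36 for Impact, quantile normalization 2.06 and cyclic loess 2.29.

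**Figure D2:**
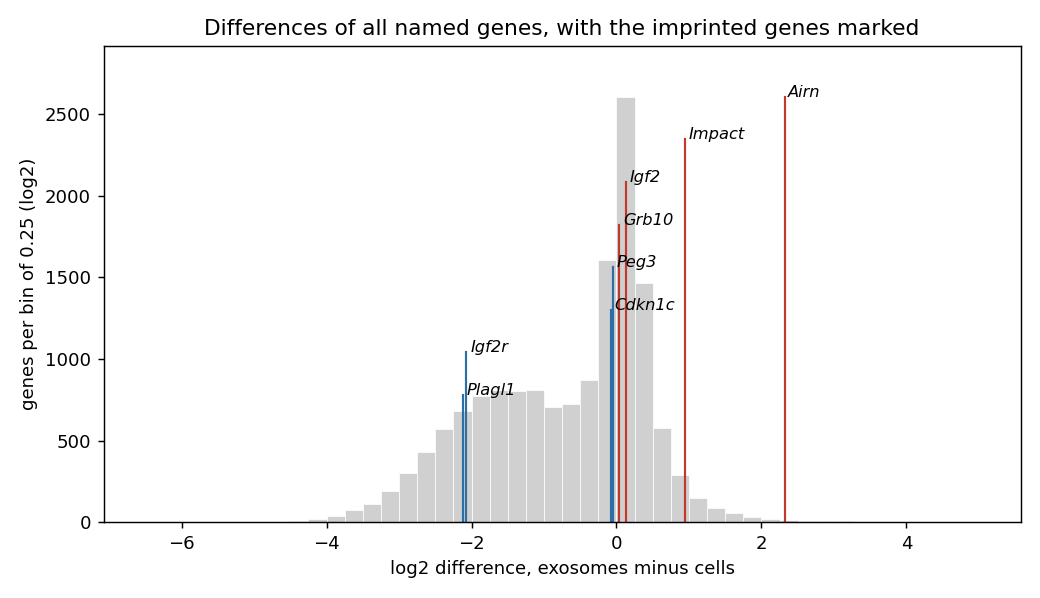
Number of genes (vertical axis, bins of 0.25) by log2 difference, exosomes minus cells (horizontal axis), for all 14860 named genes, with the 8 genes marked by lines whose height carries no value. Airn at 2.32 lies in the thin right tail, Impact at 0.95 on its slope, and Igf2r at -2.07 and Plagl1 at -2.12 within the broad left part.

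For most of the 8 genes the spread within each group was at or below the median of all genes. The SD over 4 arrays ran from 0.07 to 0.23 in exosomes and from 0.04 to 0.19 in cells, beside a median of 0.15 and 0.11 over all genes. Airn was above the median in both groups and had the largest SD of the 8 in exosomes, and Plagl1 had the largest in cells.

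**Figure D3:**
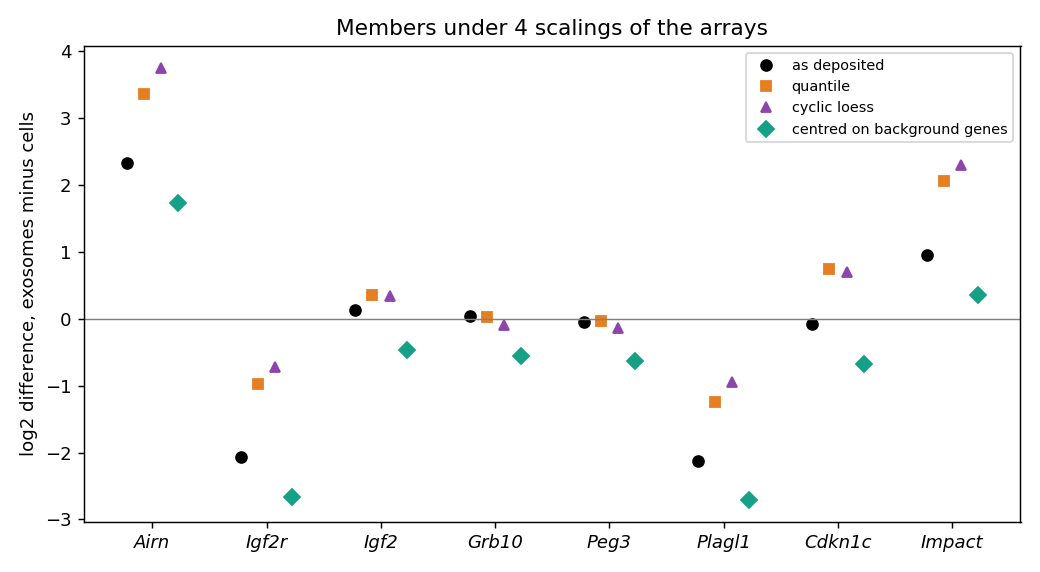
Log2 difference, exosomes minus cells (vertical axis), of each of the 8 genes under 4 scalings of the arrays (symbols). Airn and Impact stayed above 0 and Igf2r and Plagl1 below 0 under each, while the sign of Igf2, Grb10 and Cdkn1c depended on the scaling.

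The measured genes on either side of Airn were described next, 5 on each side in the gene order of the RefSeq table. In that order they were Agpat4, Map3k4, Plg, Slc22a2 and Igf2r on one side and Mas1, Sod2, Unc93a, Tcte2 and Dact2 on the other. Besides Igf2r, those above background in both groups fell as deposited. Map3k4, a kinase of stress signalling, had a log2 difference of -1.21 ± 0.08 (SE, limma adjusted p = 1.95e-06). Sod2, the mitochondrial superoxide dismutase, had one of -0.77 ± 0.08 (adjusted p = 4.9e-05). After cyclic loess both turned round, to 0.24 for Map3k4 and 0.46 for Sod2, and both were called higher there. Agpat4, an acyltransferase of phospholipid synthesis, did not exceed background on exosome arrays and was at least 1.34-fold lower there (limma adjusted p = 5.44e-07), a call kept under each scaling.

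Slc22a2, a transporter of organic cations and a gene that Airn silences in the mouse placenta, was below background on all arrays. It averaged 4.72 ± 0.10 in exosomes and 4.53 ± 0.11 in cells (log2, SD, n = 4 each), and it was not called as deposited (limma adjusted p = 0.0918), and called lower with background centring (-0.40). Slc22a3 was not among the genes with a transcript cluster of their own. Plg, Mas1 and Unc93a were below background on all arrays as well. Plg, which encodes plasminogen, was called higher by a narrow margin (0.27 ± 0.10, limma adjusted p = 0.0468), below the shift of 0.60 of the background genes, and lower after centring on them. Tcte2, above background on cell arrays only, was called lower as deposited (limma adjusted p = 0.0384) although its groups overlapped, and higher after quantile normalization. Dact2 was not called as deposited (-0.12 ± 0.09, limma adjusted p = 0.292), but was called higher after quantile normalization (0.63) and cyclic loess (0.59) and lower with background centring (-0.72). Of these 11 genes, Airn was the 1 that was above background in both groups and called higher as deposited. As the set was chosen by the rise of Airn, nothing is read from this.

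**Figure D4:**
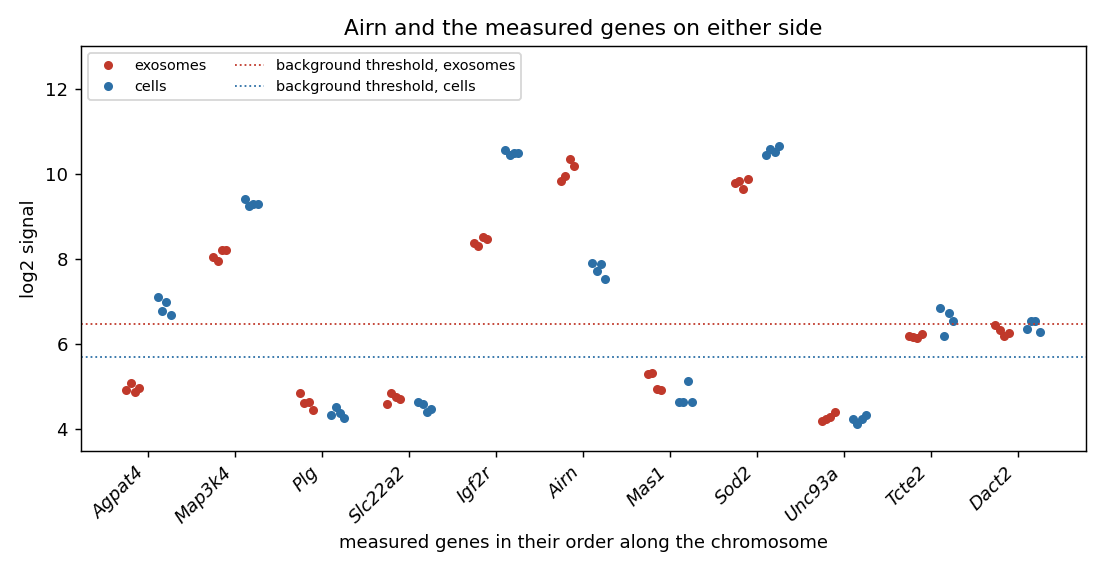
Log2 signal (vertical axis) of Airn and 5 measured genes on each side in gene order (horizontal axis), with 4 exosome arrays in red on the left of each gene, 4 cell arrays in blue on the right, and the mean background thresholds of each group as dotted lines. Igf2r, next to Airn, fell by 2.07 on the log2 scale, and Slc22a2 lay below both thresholds.

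The gene profiles most like Airn were sought among 5283 other genes above background on all exosome arrays. Likeness was the root mean square difference over the 8 arrays between log2 values centred on the mean of each gene. The 5 nearest were Slc26a6 at 0.135, Exog at 0.137, Nacc2 at 0.141, Rapgef1 at 0.151 and Camkk2 at 0.167. They encode an anion exchanger (Slc26a6), a mitochondrial nuclease (Exog), a transcriptional repressor (Nacc2), an exchange factor for the GTPase Rap1 (Rapgef1) and a kinase of calcium signalling (Camkk2). Their log2 differences ran from 2.09 ± 0.10 for Slc26a6 to 2.58 ± 0.09 for Camkk2 (SE). This likeness rests mainly on the step between the groups, which all 5 share with Airn.

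Other imprinted genes were taken from lists of paternally and maternally expressed mouse genes, some of which are imprinted only in certain tissues. Of 18 measured paternally expressed genes, limma called 2 higher and 5 lower in exosomes, with a median log2 difference of 0.05. Of 28 measured maternally expressed genes, it called 3 higher and 14 lower, with a median of -0.31. Over all genes the shares were 14.6% and 52.1% and the median was -0.39. Only 6 of the 18 and 14 of the 28 were above background on all arrays of at least 1 group. The medians therefore include many dim genes, and nothing is read from their distance to that of all genes. The 5 called higher were Sfmbt2, Slc38a4, Tfpi2, Htr2a and Th, and none was above background on an exosome array. Of these Tfpi2, a secreted protease inhibitor, had the largest difference, at 0.91 ± 0.16 (log2, SE, limma adjusted p = 0.000909), and with background centring none of the 5 was called higher. The count of 2 paternally expressed genes fell to 1 without cell sample 1, 2 or 3 or exosome sample 2 or 4, and was 3 without cell sample 4.

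Among the paternally expressed genes Sgce fell most. It encodes a sarcoglycan of the cell membrane and averaged 8.57 in exosomes and 11.64 in cells, a log2 difference of -3.07 ± 0.10 (SE), or 8.39-fold lower (limma adjusted p = 4.99e-08). Inpp5f, a phosphoinositide phosphatase, was at least 1.44-fold lower (limma adjusted p = 1.44e-07) and Mcts2 at least 1.29-fold lower (limma adjusted p = 0.000601), as neither was above background in exosomes. Of the maternally expressed genes, Pon3, a lactonase, was at least 4.46-fold lower as deposited (limma adjusted p = 4.8e-08). Ube3a, a ubiquitin ligase and the gene of Angelman syndrome, was at least 3.32-fold lower as deposited (limma adjusted p = 5.69e-08). H13, the signal peptide peptidase, was above background in both groups and 4.58-fold lower (log2 difference -2.19 ± 0.07 SE, limma adjusted p = 5.18e-08). These 6 genes were called lower under each scaling, but by less after quantile normalization and cyclic loess. The log2 differences there were -1.59 and -1.29 for Pon3 and -1.72 and -1.41 for Ube3a, so the bounds hold only as deposited.

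Together with the 8 genes, 54 imprinted genes were measured, and 25 were above background on all arrays of at least 1 group. Of these 25, Airn and Impact were called higher, 19 lower, and Cdkn1c, Peg12, Dlk1 and Ppp1r9a were not called as deposited. All 4 of these were called higher after quantile normalization and cyclic loess, and lower with background centring. Of all 9260 genes that met the same condition, 7.54% were called higher and 79.3% lower. The condition lets a gene through by its higher group, so these shares describe the genes that passed and not all imprinted genes. With quantile normalization or cyclic loess, 9 of the 25 were called higher. Airn and Impact are among the 8 genes chosen by the rise of Airn, so nothing is read from their calls. Without the 8 genes, none of 46 listed imprinted genes was called higher by limma under all 4 scalings and 12 were called lower, where 2.45% and 30.9% of all genes were so. With background centring, 0 of the 46 were higher at an unadjusted p below 0.05 too.

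**Figure D5:**
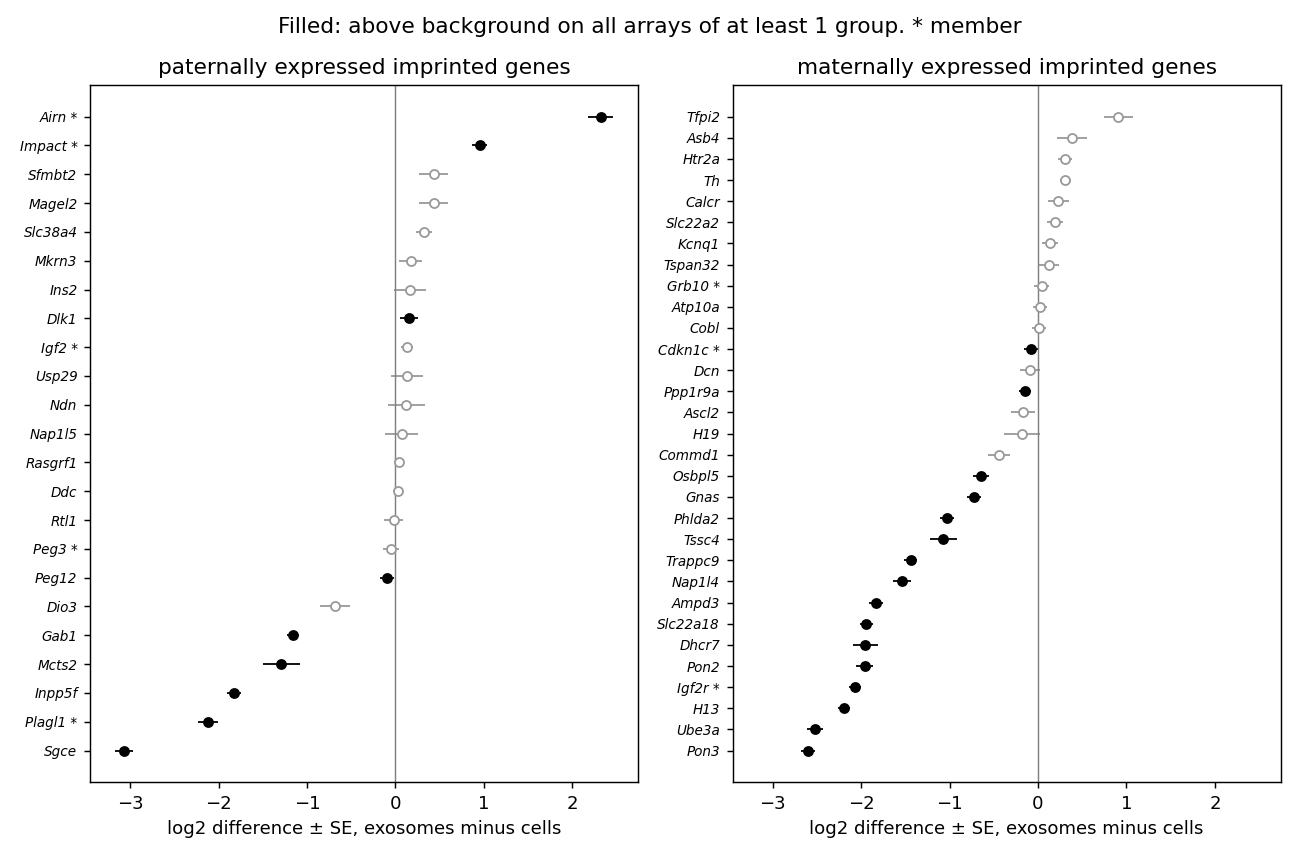
Log2 difference with SE, exosomes minus cells (horizontal axis), of measured paternally expressed (left) and maternally expressed (right) imprinted genes, with the 8 genes of the set starred. Filled points were above background on all arrays of at least 1 group. Airn and Impact are the filled points to the right of 0 that were called, and Sgce at -3.07 lies farthest to the left.

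The clusters around the other genes were covered by the same lists, within 1 Mb of a gene of the set. Near Cdkn1c, 13 listed genes were measured, Igf2 among them, of which limma called 1 higher and 6 lower as deposited. These counts are near the shares over all genes, 14.6% and 52.1%. Those that fell were Slc22a18, Nap1l4, Dhcr7, Tssc4, Phlda2 and Osbpl5. Slc22a18, a membrane transporter, had a log2 difference of -1.94 ± 0.07 (SE, limma adjusted p = 6.85e-08). Phlda2, which restrains growth of the placenta, was at least 1.52-fold lower as deposited (limma adjusted p = 4.53e-06). Its log2 difference was -0.27 after quantile normalization and -0.18 after cyclic loess, so this bound does not hold there. Osbpl5, which fell by 0.64 on the log2 scale as deposited, was called higher after quantile normalization and cyclic loess, Tssc4 was not called after either, and Nap1l4 was not called after cyclic loess. H19, the noncoding RNA that shares enhancers with Igf2, was below background on all arrays, as were Ins2, Ascl2, Tspan32 and Kcnq1. Near Grb10, Ddc and Cobl were below background and not called as deposited. Near Peg3, Usp29 was below background as well. Near Meg3, Dio3 was called lower (-0.68 ± 0.17, limma adjusted p = 0.00776) although below background on all arrays, and Dlk1 and Rtl1 were not called as deposited.

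Genes of the insulin-like growth factor pathway were listed without Igf2, Igf2r and Grb10. Of 26 measured, limma called 4 higher and 13 lower, beside 14.6% and 52.1% of all genes, and the median log2 difference was -0.25. The 4 called higher were the carrier protein Igfals, the binding protein Igfbp1, the ligand Igf1 and Igf2bp1, which binds Igf2 mRNA. The first 3 were below background on all arrays. The count of 4 dropped to 2 without cell sample 2 or 4 or exosome sample 2. Igf2bp1 was above background on all arrays and averaged 6.81 ± 0.14 in exosomes and 6.50 ± 0.12 in cells (log2, SD, n = 4 each), with overlapping groups, and it was called lower with background centring. Igf2bp3, of the same family, was at least 3.08-fold lower as deposited (limma adjusted p = 1.7e-07), with a smaller log2 difference of -1.03 after cyclic loess. Both receptors fell as deposited, but neither was called after quantile normalization or cyclic loess. Insr, above background on all arrays, had a log2 difference of -1.44 ± 0.09 (SE). Igf1r was above background on 1 of 4 exosome arrays and 4 of 4 cell arrays, so its measured difference of -1.26 ± 0.13 (SE) rests on exosome values around the threshold.

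The enzymes that make the mannose 6-phosphate tag, which Igf2r reads on lysosomal proteins, fell together with it as deposited. The log2 differences were -1.97 ± 0.09 for Nagpa (limma adjusted p = 2.41e-07), -1.60 ± 0.10 for Gnptg (limma adjusted p = 1.26e-06) and -1.07 ± 0.07 for Gnptab (SE). Nagpa was called lower under each scaling. Gnptg was not called with quantile normalization or cyclic loess, and Gnptab was not called with the first and was called higher with the second. As with Igf2r, falls of this size were common on these arrays.

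As Airn is noncoding, it was set beside other long noncoding RNAs. Of 9 that were listed and measured, Lncpint was called higher (11.1%), and Snhg5, Tug1 and Gas5 lower (33.3%), beside 14.6% and 52.1% of all genes. The 1 call higher became 2 without cell sample 2 and 3 without exosome sample 1. Lncpint, a noncoding RNA induced by p53, averaged 7.43 in exosomes and 6.78 in cells, a log2 difference of 0.65 ± 0.11 (SE, limma adjusted p = 0.000977), and was not called with background centring. Tug1 had a log2 difference of -1.76 ± 0.11 (limma adjusted p = 9.04e-07) and Gas5 one of -1.20 ± 0.10 (limma adjusted p = 8.94e-06), although Gas5 was called higher after cyclic loess. Snhg5 (limma adjusted p = 4.67e-06) was above background in cells alone, at a level under the exosome threshold, so no fold is given.

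A wider set, chosen after the values were seen, held the 156 other named genes that RefSeq classes as long noncoding RNA. Of these limma called 40 higher (25.6%) and 31 lower (19.9%), with a median log2 difference of 0.15, beside 14.6%, 52.1% and -0.39 over all genes. Most of the 40 were not above background on all arrays of either group, and the median of the background genes was itself 0.60 higher in exosomes. Of the 36 above background on all arrays of at least 1 group, 5 were called higher and 24 lower, beside 7.54% and 79.3% of all genes under that condition. All 36 passed in cells and 12 passed in exosomes, where the threshold was higher. The condition thus favours genes high in cells, and these shares do not describe all 156. The 5 were B930095G15Rik, A530013C23Rik, Lncpint, 4930465K10Rik and D930048N14Rik. B930095G15Rik was the 1 gene of the 156 with a larger difference than Airn, averaging 10.55 ± 0.06 in exosomes and 7.48 ± 0.13 in cells (SD, n = 4 each), a log2 difference of 3.07 ± 0.09 (SE, limma adjusted p = 3.36e-08). Of these 5, B930095G15Rik and A530013C23Rik were called higher under each scaling, as was Airn. The difference of A530013C23Rik was 1.03 ± 0.12 as deposited. Larger differences were measured for F630111L10Rik (1.78), Tbrg3 (1.72) and 8430431K14Rik (1.71). None of them was above background on all arrays of a group, and their calls under other scalings are not given here.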

How the data were processed

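Total RNA of 4 exosome and 4 cell samples was measured on 8 Affymetrix mouse exon arrays. The deposited values are on a log2 scale. Expression Console, RMA and the build mm8 are named per the submitters' processing notes, and the series text states that core probesets were averaged per gene. Their versions and the exosome isolation method are not given in the sources used. The quartiles of the groups differed, so other scalings were tried. Genes were named through the platform table, in which 14996 of 23332 transcript clusters had 1 symbol, 1019 had several and 7317 were unnamed. By gene ID, 14941 transcript clusters were found in the RefSeq table of GRCm38.p6, which gave names, gene order and biotype. Where a gene had several transcript clusters, the one with the highest mean signal was used.

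Groups were compared with limma 3.58.1 (R 4.3.3; lmFit and eBayes, two-sided, Benjamini-Hochberg over all transcript clusters, adjusted p below 0.05, no filter on dim signals). The steps were tested on simulated data with few changed transcript clusters and no difference in scale between the groups. That test does not bear on the choice of scaling. Other tables and figures were made in Python 3.11.15 with scipy 1.17.1 and matplotlib 3.10.9. Folds are powers of 2 of differences of mean log2 values. A fold written "at least" is the mean of cells against the mean background threshold of exosome arrays, for genes above background on no exosome array. It refers to the deposited values and is no bound under other scalings. No 2 arrays held identical values. The number of arrays limits the precision. Named genes were each member, up to 3 called genes with the largest rise and 3 with the largest fall per list, 5 genes on each side of Airn and the 5 profiles most like it, and other names were chosen after their values were seen. The members and lists were chosen with earlier results of these data known. The alternatives were other scalings, removal of dim signals, a trended and robust prior, the replicate number as a block, stricter calls, other background percentiles and the omission of each array.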

Additional observations from a re-analysis of the deposited data

How the results depend on the processing

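Airn, Impact, Igf2r and Plagl1 kept their direction and their call under each alternative that gave a call, except that Impact did not reach 2-fold, which left 1 gene of the 8 called higher. Without any 1 array, 2 of the 8 were called higher and 2 lower. Members called higher numbered 4 after quantile normalization and 4 after cyclic loess, as Igf2 and Cdkn1c were added, and members called lower numbered 6 with background centring. Over all transcript clusters the median log2 difference was -0.20 in the deposited values, and quantile normalization gave 0.05, cyclic loess 0.03 and centring -0.80.

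Transcript clusters called higher numbered 6627 (quantile), 6799 (cyclic loess), 1058 (centring), 1498 (dim signals removed), 2346 (adjusted p below 0.01) and 1268 (2-fold), and those called lower 6582, 6490 and 16681 under the first 3. Paternally expressed genes called higher numbered 4 (quantile), 0 (centring, dim signals removed, adjusted p below 0.01, 2-fold), 1 (trended and robust prior) and 1 to 3 without 1 array, and 13 were lower after centring. Maternally expressed genes called higher numbered 7 (quantile and cyclic loess) and 0 (centring, dim signals removed, 2-fold), and those lower 9, 8 and 26 (quantile, cyclic loess, centring). Growth factor pathway genes called higher numbered 9, 11 and 0 under these scalings, 1 (dim signals removed and adjusted p below 0.01), 0 (2-fold), 2 with the replicate block and 2 to 4 without 1 array, and those lower 4, 5, 23 and 8 (2-fold). Listed noncoding RNAs called higher numbered 3 (cyclic loess), 0 (centring, 2-fold) and 1 to 3 without 1 array, and 7 were lower after centring. Imprinted genes above background called higher numbered 9 (quantile and cyclic loess) and 1 (2-fold). RefSeq noncoding RNAs above background called higher numbered 13, 15 and 2 (quantile, cyclic loess, centring) and 2 (2-fold), with 15 lower under the first 2. The last 2 counts were added after the values were seen. With centring, and for imprinted genes with dim signals removed, limma counted 0 listed genes higher at an unadjusted p below 0.05 as well. Why these counts moved was not tested.

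Deviations of same-numbered samples correlated at -0.055, 0.001, -0.029 and -0.015, so the values showed no pairing by replicate number. Whether same-numbered samples shared a culture cannot be read from this. The block moved no other count by over 1.5 times. Each of the 8 genes had 1 transcript cluster, so no other cluster could be tried. With the 90th percentile as background, 5 of the 8 were above it in exosomes and 6 in cells, and with the 99th, 4 and 4. Low signal over background limits what can be said of Igf2, Grb10, Peg3 and Cdkn1c.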
